A study of Mus musculus with 14 samples.

Results

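Interferon response and RNA sensing genes were followed in 3 kinds of mouse stem cell treated with STM2457, an inhibitor of METTL3. They are 36 listed genes, found by symbol among the 55416 gene identifiers of the count table (the rule itself uses no measured value, but the list was drawn up with earlier results of these data known). They comprise 6 sensors of RNA (Ifih1, Ddx58, Dhx58, Tlr3, Zbp1, Eif2ak2), the RNA editor Adar, the ubiquitin ligase Trim25, the adaptor Mavs, the transcription factors Irf1, Irf3, Irf7, Irf9 and Stat2, the receptor subunits Ifnar1 and Ifnar2 with their kinases Jak1 and Tyk2, and genes induced by interferon (Ifit1, Ifit2, Ifit3, Ifit3b, Oas1a, Oasl1, Oasl2, Isg15, Usp18, Parp9, Parp14, Dtx3l, Rtp4, Cxcl10, Bst2, Ifi35, Mx1, Xaf1).

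Total RNA was sequenced from 14 libraries. Extraembryonic endoderm stem cells (XEN), labelled WT and grown in DMEM with serum, gave 3 DMSO and 3 STM2457 libraries. Trophoblast stem cells (TSC), also labelled WT, were kept in fibroblast-conditioned RPMI with serum and Fgf4 and gave 2 libraries per arm. Epiblast stem cells (EpiSC), whose genotype is written XmolXmus-<delta>Tsix in the labels, were kept with serum replacement, Fgf2 and Activin A and also gave 2 per arm. Every line was a hybrid of Mus molossinus and Mus musculus, and each is 1 line, so no line stands for its tissue beyond itself. STM2457 was given at 50 µM for 12 h, and the control arm is named DMSO. The labels do not say that libraries came from separate cultures, so each p-value reflects the spread among these libraries alone, which may be technical.

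METTL3 is the catalytic subunit of the enzyme that places N6-methyladenosine on messenger RNA, a mark that readers tie to RNA decay. In innate RNA sensing, RIG-I (Ddx58) and MDA5 (Ifih1) bind viral or misplaced double-stranded RNA in the cytoplasm and signal through Mavs to Irf3, Irf7 and NF-kB, which turn on type I interferon. Interferon then binds Ifnar1 and Ifnar2, the kinases Tyk2 and Jak1 activate Stat2, and Stat2 joins Irf9 in a complex that binds the interferon-stimulated response element (ISRE). The gamma-activated site (GAS) is another element of interferon-responsive genes, and Irf1 also binds ISRE-like sites. Pluripotent cells are known for a weak interferon response.

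Parts of the start regions of Irf1, Stat2 and 6 induced members are shown as examples that hold the letters these factors recognise, in members that responded to STM2457 and in members that did not pass its test. RefSeq windows (GRCm38.p6) of 300 bases, 250 before and 50 after a transcription start, were found for 29 of the 36 members, and none for Dhx58, Zbp1, Usp18, Parp9, Parp14, Rtp4 and Mx1. ISRE was searched on both strands as 2 copies of GAAA separated by any 2 bases (TTTC, 2 bases, TTTC when read on the other strand), and GAS as TTCNNNGAA, which reads alike on both strands. ISRE was present in 11 of the 29 members and GAS in 9, a member counting if any of its windows matched (34 windows in all). Of all 32851 windows, from 27025 genes, 3.44% held ISRE and 8.3% held GAS. These shares are per window and not per gene. Capitals mark ISRE matches, except in Irf1, where they mark GAS; each line reads 5′ to 3′ on the strand of the gene.
Irf1: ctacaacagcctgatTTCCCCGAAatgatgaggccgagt
Stat2: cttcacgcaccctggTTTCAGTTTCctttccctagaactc
Ifit1: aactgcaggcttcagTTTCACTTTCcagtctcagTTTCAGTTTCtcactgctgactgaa
Ifit3: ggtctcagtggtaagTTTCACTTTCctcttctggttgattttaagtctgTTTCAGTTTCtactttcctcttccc
Cxcl10: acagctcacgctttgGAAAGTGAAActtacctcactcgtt
Isg15: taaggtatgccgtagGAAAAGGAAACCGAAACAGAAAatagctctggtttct
Oas1a: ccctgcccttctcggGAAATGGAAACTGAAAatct
Bst2: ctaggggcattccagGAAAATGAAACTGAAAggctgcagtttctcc

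The Irf1 stretch is chr11:53769909-53769947 on the plus strand, Stat2 chr10:128270261-128270300 (plus), Ifit1 chr19:34640770-34640828 (plus), Ifit3 chr19:34583358-34583431 (plus), Cxcl10 chr5:92349078-92349117 (minus), Isg15 chr4:156200860-156200911 (minus), Oas1a chr5:120907526-120907560 (minus) and Bst2 chr8:71537572-71537617 (minus). All lie upstream of the annotated start. The stretch of Ifit3b, chr19:34607754-34607827 (plus), has the same letters as that of Ifit3. In Oas1a, Isg15 and Bst2 the ISRE matches overlap each other, and the capitals cover the merged run; in Bst2 a GAS match from position -136 to -128 overlaps them as well. Ifih1, Ddx58 and Eif2ak2 held ISRE just after the start, and Ifnar1 held GAS across it, from position -5 to 4. A match is a description of letters and not a binding site. Members with a match were not alike in their response: Ifit1 and Cxcl10 rose in 1 line each, whereas Isg15, Oas1a and Bst2 passed no test of STM2457 in any line.

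**Figure D1:**
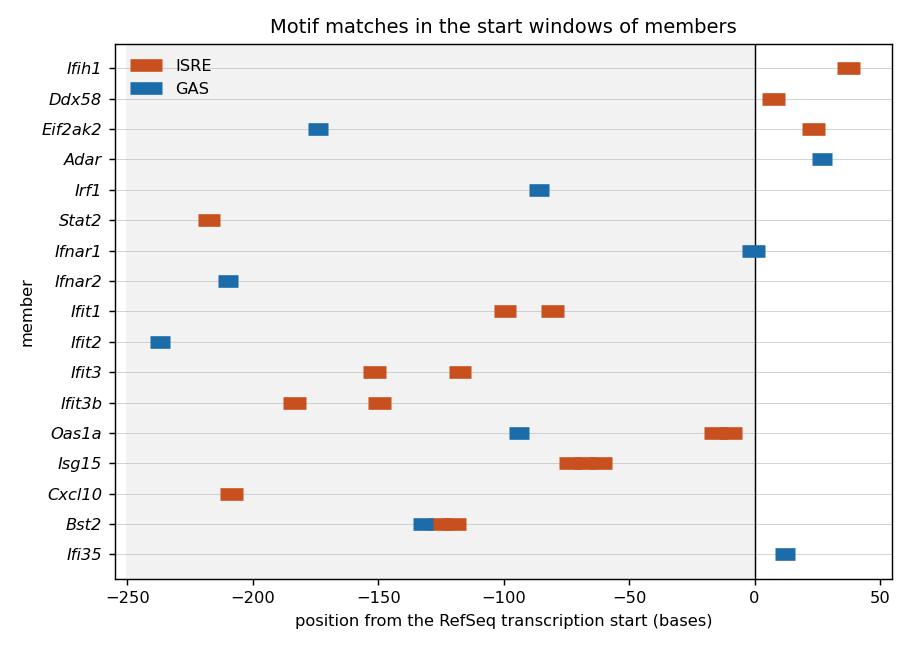
Position of each ISRE (orange) and GAS (blue) match along the 300-base start window of the 17 members that hold one; the x axis is the distance in bases from the RefSeq transcription start and the shaded area lies upstream. Ifit1, Ifit3 and Ifit3b each hold 2 separate ISRE matches upstream of the start, and Stat2 and Cxcl10 hold 1 each, farther away.

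Library totals were 6826496 to 10024628 counts in XEN, 17909934 to 20354242 in TSC and 18640099 to 21097380 in EpiSC, so 1 count weighs more in XEN. Levels are CPM, counts relative to the TMM-adjusted library total on the usual CPM scale. The lineage markers matched the labels: 6 endoderm markers summed to 2030 to 2310 CPM in the XEN controls, 6 trophoblast markers to 2272 to 2452 CPM in the TSC controls, and 6 epiblast markers to 1049 to 1106 CPM in the EpiSC controls; elsewhere each list stayed at or below 68.8 CPM, apart from Sox2, an epiblast marker, which was at 277 CPM in the TSC controls. XEN libraries of 1 arm differed more from each other than those of the other lines. A chi-square per degree of freedom over genes was 9.30 to 24.1 for pairs within a XEN arm and 2.20 to 5.10 for pairs in TSC and EpiSC. Of the 36 members, 34 passed the filter on low counts; Zbp1, which held at most 9 counts in any group, and Oasl1, which held at most 7, did not. Mettl3 itself was not called in any line, at 50.9 against 46.5 CPM in XEN for DMSO and STM2457, 32.5 against 29.3 in TSC, and 31.1 against 26.4 in EpiSC; the compound acts on the enzyme, so these levels do not check the treatment.

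In XEN, 8 of the 34 tested members rose with STM2457 and none fell at an adjusted p under 0.05 (edgeR quasi-likelihood F test, Benjamini-Hochberg over 18430 genes), where 3.07% of all tested genes rose and 1.07% fell. The risers span the pathway from the receptor to its targets: Ifnar1, Irf1, Irf9, Ifit1, Oasl2, Rtp4, Parp9 and Parp14. The largest of these rises were 3.93-fold for Rtp4 and 2.95-fold for Ifit1. At an unadjusted p under 0.05 there were 18 members, against 17.3% of all genes.

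Ifit1, which binds foreign RNA ends and blocks their translation, stood at 2.82, 3.40 and 2.81 CPM in the DMSO libraries numbered 1 to 3, against 9.10, 8.81 and 8.72 CPM in the treated ones. The groups were far apart relative to their spread, with a log2 fold change of 1.56 ± 0.28 (SE; adjusted p = 0.0061). Rtp4, an interferon-induced chaperone of membrane receptors, gave 1.72, 2.43 and 2.20 CPM untreated, against 9.21, 10.9 and 4.82 CPM treated. All treated libraries were above all controls, the third by less than the others (1.97 ± 0.40; adjusted p = 0.0113). Oasl2, a relative of the oligoadenylate synthetases, rose from 10.8, 20.7 and 14.8 CPM to 27.4, 35.8 and 27.5 CPM (0.97 ± 0.21; adjusted p = 0.0138).

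Parp9 and Dtx3l encode an ADP-ribosyltransferase and a ubiquitin ligase that form 1 complex, and lie with Parp14, another ADP-ribosyltransferase, on chromosome 16. Parp14 was at 27.4, 56.3 and 41.6 CPM untreated, against 62.0, 80.6 and 63.1 CPM treated (0.72 ± 0.19; adjusted p = 0.0459). Parp9 was at 11.9, 18.3 and 13.3 CPM against 21.8, 26.8 and 21.1 CPM (0.68 ± 0.16; adjusted p = 0.0232). For both genes the highest control, number 2, lay below the lowest treated library. Dtx3l gave 6.89, 12.3 and 8.17 CPM against 12.2, 19.4 and 14.1 CPM; control number 2 lay just above the lowest treated library, and the difference of 0.74 ± 0.21 did not pass (adjusted p = 0.0569). Parp9 and Dtx3l share 458 exon bases on opposite strands, and whether the counting used strand is not given here, so reads there may count for either gene.

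Among the signalling members, the receptor subunit Ifnar1 was nearly constant in the controls, at 130, 129 and 131 CPM, against 173, 169 and 162 CPM with STM2457 (0.38 ± 0.08; adjusted p = 0.0131). Irf9, the DNA-binding partner of Stat2, rose from 37.1, 38.5 and 41.2 CPM to 53.8, 50.8 and 53.8 CPM (0.44 ± 0.11; adjusted p = 0.0349). Irf1 rose from 11.6, 12.3 and 11.6 CPM to 15.8, 17.7 and 17.1 CPM (0.51 ± 0.12; adjusted p = 0.0186). These 3 rises are smaller than those of Ifit1 and Rtp4, and their control libraries lie closer together relative to their level. Stat2 had 24.4, 53.9 and 33.7 CPM untreated, against 52.7, 84.9 and 60.3 CPM treated; the groups overlap through control number 2, and 0.82 ± 0.24 was not called (adjusted p = 0.0746).

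The 31 members that passed the filter within XEN had a median log2 fold change of 0.51, and 29 of them were positive, beside a median of -0.01 and 48.0% positive over the 13118 genes that passed there; a member can pass through the arm in which it is higher, so these are descriptions. All 3 treated libraries lay above all 3 controls for 11 of 34 members, as they did for 8.36% of tested genes. These are the 8 called members with Dhx58, Ifit3 and Ifit3b. Ifit3 and Ifit3b are 98.0% identical over 1697 aligned bases, so their counts, 9 and 8 in all XEN controls against 40 and 43 with STM2457, can be split between them by the counting and are uncertain for each.

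Libraries with the same number moved together in XEN: the correlation of their deviations from the arm means was 0.220, 0.376 and 0.337 for the same number and -0.290 to -0.0196 for different numbers. The number-2 libraries were the highest of both arms for 17 of the 31 members, beside 21.5% of 13118 genes, among them Stat2, Parp14, Oasl2, Rtp4 and Trim25. With the replicate number as a block, 16 members rose, against 7.94% of all genes, and Tyk2 fell. The block added Stat2 (0.85; adjusted p = 1.34e-06), Adar (0.41; adjusted p = 0.000713), Dtx3l (0.75; adjusted p = 0.00104), Xaf1 (0.60; adjusted p = 0.00225), Ifit2 (1.00; adjusted p = 0.00307), Ddx58 (0.51; adjusted p = 0.00323), Ifit3b (2.19; adjusted p = 0.0297) and Mavs (0.31; adjusted p = 0.0487). Higher values in all 3 numbered pairs were seen for 23 of 34 members and for 19.2% of genes.

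**Figure D2:**
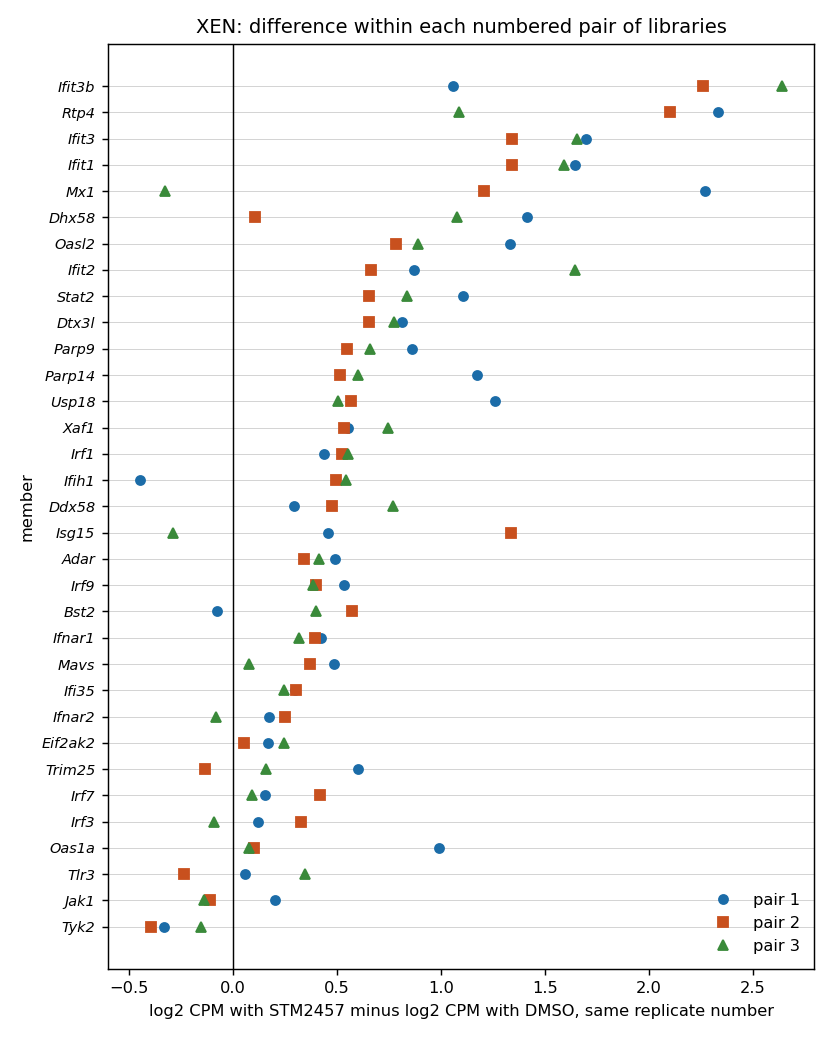
Difference in log2 CPM (prior count 2) between the STM2457 and the DMSO library of the same number in XEN, 1 marker shape and colour per pair, for each tested member with counts in XEN. Ifit1 was higher by 1.65, 1.34 and 1.59 in the pairs, Rtp4 by 2.33, 2.10 and 1.09 and Stat2 by 1.10, 0.65 and 0.84, whereas Mx1 and Isg15 were each below 0 in the third pair and Tyk2 was below 0 in every pair.

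The XEN calls depended on how the spread was estimated. Fitted on the 6 XEN libraries without the block, no member was called (12 at an unadjusted p under 0.05), where 0.183% of all genes rose; with the block on those libraries 15 members rose, against 7.67% of genes. Without DMSO replicate 3, Ifnar1, Ifit1 and Rtp4 remained called, where 2.26% of all genes were called in either direction, and without DMSO replicate 2 there were 13 calls, beside 5.74% of genes. When the libraries were scaled to 77 ribosomal protein genes, Ifit1 and Rtp4 remained, beside 0.765% of genes. Without the filter 11 of 36 members were called, beside 3.19% of genes, but Irf1, Irf9 and Ifnar1 were not. Over the 13 alternatives that gave Ifit1 and Rtp4 an adjusted p, both calls held in 12 (DESeq2 gave them none). Over 14 for the others, Ifnar1 and Oasl2 held in 11, Irf1 in 10, Parp9 in 9, Irf9 in 7 and Parp14 in 5. Besides DMSO replicate 3, Parp9 was lost without DMSO replicate 1 or STM2457 replicate 2, Irf9 without replicate 1 of either arm or STM2457 replicate 3, and Parp14 without any 1 library other than DMSO replicate 2.

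In TSC no member was called, where 0.836% of all genes rose and 0.130% fell. In edgeR's test 6 members had an unadjusted p under 0.05 (13.4% of all genes), all of them higher with STM2457: Mavs, Irf9, Ifnar1, Parp9, Parp14 and Dtx3l. With DESeq2, Irf9 and Ifnar1 were called, against 3.55% of genes that rose. Many interferon targets were near 0 in TSC, so only 25 members passed the filter within this line.

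Irf9 was at 6.01 and 5.68 CPM in the TSC controls against 8.32 and 9.37 CPM treated, with no overlap between the arms (0.60 ± 0.15; adjusted p = 0.072). Ifnar1 was at 54.4 and 50.8 CPM against 69.8 and 67.6 CPM (0.39 ± 0.10; adjusted p = 0.0743). Parp14 was at 10.1 and 9.89 CPM against 15.7 and 15.2 CPM (0.63 ± 0.24; adjusted p = 0.258). The log2 differences of Irf9 and Ifnar1 were at or above those in XEN and that of Parp14 was below; none passed. Dtx3l gave 7.22 and 6.73 CPM against 10.5 and 11.2 CPM, Parp9 10.9 and 10.5 CPM against 14.5 and 14.9 CPM, and Mavs 46.2 and 43.0 CPM against 55.9 and 54.1 CPM. Irf1, which rose in XEN, was at 27.7 and 29.9 CPM untreated and at 27.6 and 27.9 CPM treated (-0.05 ± 0.11).

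Both treated TSC libraries were above both controls for 20 of 34 members and for 27.9% of genes, and Tyk2 alone was below them. The 25 members that passed within TSC had a median of 0.18, with 19 positive, beside -0.01 and 49.2% over 14489 genes. On the 4 TSC libraries alone, whose replicates lay closer together than those of XEN, 9 of 25 members were called, all higher: Tlr3, Adar, Mavs, Irf9, Stat2, Ifnar1, Parp9, Parp14 and Dtx3l, with log2 fold changes between 0.22 for Adar and 0.65 for Dtx3l. The same fit called 16.3% of all genes higher.

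In EpiSC 1 of 34 tested members rose, Cxcl10, where 1.28% of all genes rose and 0.402% fell. Cxcl10, a chemokine induced by interferon and NF-kB that attracts T cells, was at 8.79 and 8.96 CPM untreated, against 26.0 and 25.9 CPM treated (1.55 ± 0.21, or 2.92-fold; adjusted p = 0.00735). The SD of the 2 libraries was 0.120 CPM in DMSO and 0.0572 CPM with STM2457, so the arms were far apart. All libraries of XEN and TSC held 0 counts of it. The call was lost when any 1 of the 4 EpiSC libraries was left out (adjusted p 0.127 to 0.166), while the log2 fold change stayed between 1.53 and 1.56. Each of those fits leaves 1 library in an arm, which is then assumed to vary like the other groups.

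Counting Cxcl10, 12 members had an unadjusted p under 0.05 in edgeR's test in EpiSC, against 14.8% of all genes. Parp9 came closest to a call, at 13.8 and 12.5 CPM against 20.7 and 21.8 CPM (0.70 ± 0.18; adjusted p = 0.0588). Irf1, whose start window holds the GAS match printed above, was at 59.6 and 56.2 CPM against 70.6 and 74.5 CPM (0.33 ± 0.11; adjusted p = 0.152). Ifnar1 was at 53.7 and 52.8 CPM against 67.0 and 65.4 CPM (0.31 ± 0.10; adjusted p = 0.119). None of these pairs of libraries overlapped. Irf7, the interferon-inducible amplifier of interferon transcription, went the other way on few reads, with 11 counts in the 2 controls and 1 with STM2457.

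Other EpiSC differences of size were on low levels. Xaf1, a promoter of apoptosis, was at 0.596 and 0.755 CPM against 1.36 and 1.72 CPM, and Isg15, the ubiquitin-like modifier, at 0.447 and 0.472 CPM against 0.920 and 1.07 CPM. Tlr3, the endosomal sensor of double-stranded RNA, was at 2.24 and 2.31 CPM against 3.63 and 3.61 CPM (0.67 ± 0.35; adjusted p = 0.393). Stat2 was at 20.6 and 19.5 CPM untreated, against 18.4 and 20.2 CPM treated, and the arms overlapped (-0.05 ± 0.28). Both treated libraries were above both controls for 23 of 34 members, against 29.6% of genes, and both were below for Tyk2 and Irf7. The 26 members that passed within EpiSC had a median of 0.32 with 23 positive, beside 0.01 and 51.6% of 14768 genes. DESeq2 called 5 members, Mavs, Irf1, Ifnar1, Parp9 and Cxcl10, against 3.92% of genes; the 4 EpiSC libraries alone gave 13 of 26, all higher, against 15.2%.

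**Figure D3:**
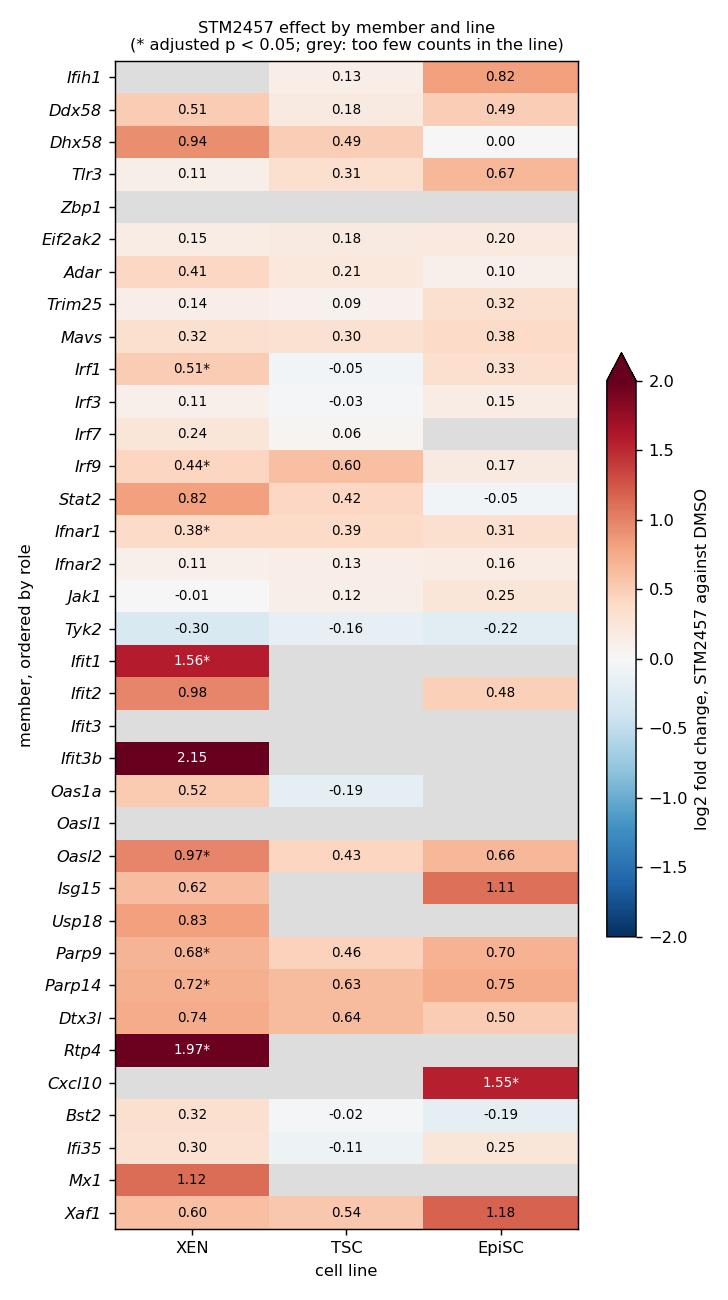
Log2 fold change of STM2457 against DMSO for the 36 members (rows, by role) in the 3 lines (columns); red is higher with STM2457, blue lower, a star marks an adjusted p under 0.05, and grey marks too few counts in that line. Red dominates every column, the 9 stars are in XEN (8) and EpiSC (Cxcl10), and Tyk2 is blue throughout.

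The mean of the 3 line effects, each line weighted equally, uses all 14 libraries at once. It was higher for 9 members, against 7.78% of all genes, and lower for 1, against 5.62%. Those that rose were Mavs, Irf1, Irf9, Ifnar1, Oasl2, Parp9, Parp14, Dtx3l and Rtp4, and the one that fell was Tyk2. The mean shares its libraries with the comparisons within lines and is not independent of them.

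Ifnar1 had the smallest adjusted p of the members, with a mean effect of 0.36 ± 0.05 (adjusted p = 0.00032) and line effects of 0.38, 0.39 and 0.31. The ADP-ribosylation genes passed as well, with Parp9 at 0.61 ± 0.10 (adjusted p = 0.000737), Dtx3l at 0.63 ± 0.13 (adjusted p = 0.00345) and Parp14 at 0.70 ± 0.14 (adjusted p = 0.00493). Each of these genes had a positive log2 fold change in every line. Irf9 was at 0.40 ± 0.08 (adjusted p = 0.00286) and Mavs, the mitochondrial adaptor of RIG-I and MDA5, at 0.33 ± 0.07 (adjusted p = 0.0053). Mavs was at 24.8, 28.8 and 27.3 CPM in the XEN controls against 34.7, 37.3 and 28.8 CPM treated, and at 24.0 and 22.2 CPM against 30.1 and 30.1 CPM in EpiSC. Its arms overlapped in XEN only through the third treated library.

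Dtx3l was at 12.9 and 14.2 CPM in the EpiSC controls against 18.9 and 19.4 CPM treated; Parp14, much scarcer there than in XEN, was at 2.88 and 2.12 CPM against 4.16 and 4.21 CPM. Oasl2 had a mean effect of 0.69 ± 0.18 (adjusted p = 0.0168), from 0.824 and 0.753 CPM to 1.07 and 1.06 CPM in TSC and from 3.97 and 2.69 CPM to 4.94 and 5.59 CPM in EpiSC. Irf1 was at 0.26 ± 0.06 (adjusted p = 0.013), the effect in TSC being -0.05. Rtp4 was at 1.85 ± 0.59 (adjusted p = 0.0484), but its effects of 0.87 ± 1.13 in TSC and 2.73 ± 1.28 in EpiSC rest on 3 and 6 counts and on 1 and 9 counts. This mean moved from 1.45 without EpiSC STM2457 replicate 1 (not called) to 2.95 without TSC DMSO replicate 2 (called).

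Tyk2, the kinase that sits on Ifnar1, was at 44.6, 50.4 and 40.0 CPM in the XEN controls against 35.4, 38.3 and 35.9 CPM, at 43.0 and 40.0 CPM against 37.3 and 37.1 CPM in TSC, and at 26.1 and 25.6 CPM against 22.0 and 22.2 CPM in EpiSC. Every treated library was below every control of its line. Its mean effect was -0.23 ± 0.07 (adjusted p = 0.0331). In 20 alternative analyses of the mean effect, the calls of Mavs, Irf9, Ifnar1, Parp9, Parp14 and Dtx3l held in all 20, those of Irf1 and Oasl2 in 15 each, that of Tyk2 in 9 and that of Rtp4 in 8. Leaving out any 1 TSC or EpiSC library ended the call of Tyk2, and leaving out TSC STM2457 replicate 2 or EpiSC DMSO replicate 2 ended those of Irf1, Oasl2, Tyk2 and Rtp4. The call of Rtp4 was also lost without replicate 1 of any arm, XEN DMSO replicate 3 or XEN STM2457 replicate 2. As for Cxcl10, leaving out a TSC or EpiSC library leaves 1 in that arm. Jak1, the partner kinase on Ifnar2, and Ifnar2 were not called (0.12 ± 0.07 and 0.13 ± 0.08), nor was Irf3 (0.08 ± 0.07).

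**Figure D4:**
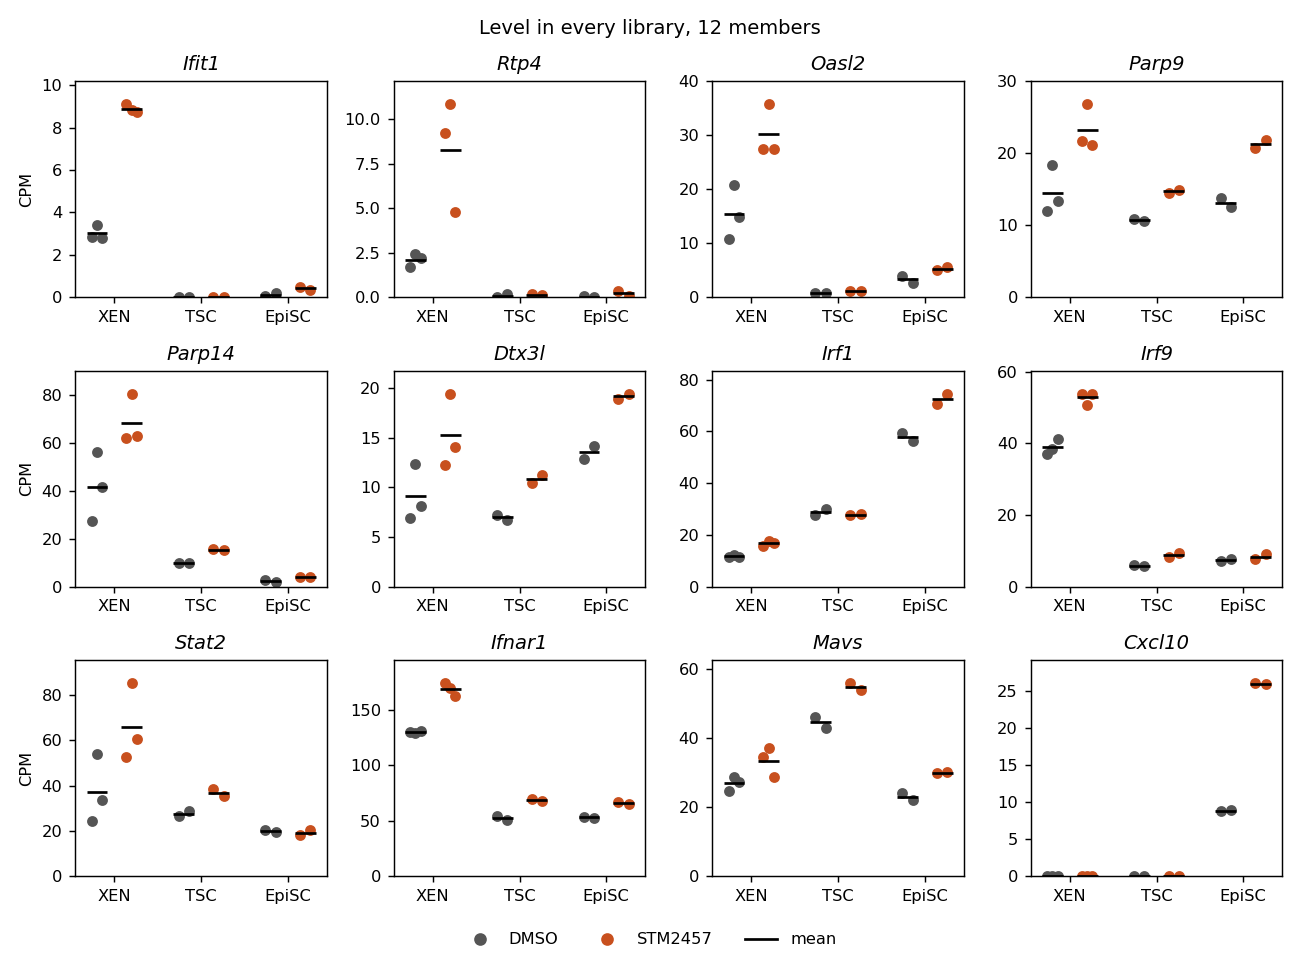
Level (CPM, linear axis from 0) of 12 members in each of the 14 libraries; grey points are DMSO, orange points STM2457, and black bars the group means. Ifit1 and Rtp4 are near 0 outside XEN and Cxcl10 outside EpiSC, while Parp9, Dtx3l, Ifnar1 and Mavs are higher with STM2457 in every line, with overlap only in XEN for Dtx3l and Mavs.

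Whether the effect of STM2457 differed between lines was tested as an interaction. No member was called in TSC against XEN, EpiSC against XEN or EpiSC against TSC with edgeR or with DESeq2, and the shares of all genes called were 0.00543%, 0.0109% and 0.00543%, so the calls made in 1 line only do not show that lines differ. At an unadjusted p under 0.05 there were 1, 2 and 2 members, against 4.94%, 6.08% and 4.31% of genes. These were Irf1 in TSC minus XEN (-0.56 ± 0.16; adjusted p = 0.846) and EpiSC minus TSC (0.38 ± 0.16), Stat2 in EpiSC minus XEN (-0.87 ± 0.37; adjusted p = 0.804), and Irf7 in both contrasts of EpiSC, on the few counts given above. With the replicate block in edgeR's test, Stat2 in EpiSC minus XEN was called (-0.90, adjusted p = 0.00252), beside 0.971% of all genes in either direction. That block also pairs the EpiSC libraries by number, where the same-number correlation was -0.0120. That fit thus assumes a pairing that was not seen in EpiSC. Without the block, Stat2 was also called in EpiSC minus XEN when no filter on low counts was used, beside 0.207% of all genes. Cxcl10 could not be compared, as the other lines held no reads of it.

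In the untreated state the lines differed in most members, as in most genes. Against XEN, 7 members were higher in TSC (36.5% of genes) and 17 lower (36.0%), and 4 were higher in EpiSC (36.6%) and 22 lower (35.1%). Against TSC, 8 members were higher in EpiSC (27.4%) and 14 lower (27.0%). Line, medium and, for EpiSC, genotype cannot be told apart here, and in bulk RNA neither can fewer cells of a type and less RNA per cell. Scaled to ribosomal protein genes, the median of all genes moved to -1.04 in TSC and -0.76 in EpiSC against XEN. In EpiSC against TSC it moved to 0.27. Against XEN, 3 members were then higher and 25 lower in TSC, beside 2698 and 11225 of the 18430 tested genes. In EpiSC 3 were higher and 29 lower, beside 3451 and 10024 genes. EpiSC against TSC then gave 10 higher and 9 lower, beside 6221 and 3156 genes.

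Trim25, a ubiquitin ligase that acts on RIG-I and also conjugates Isg15, was nearly silent in EpiSC. It was at 76.3, 177 and 90.5 CPM in the XEN controls and 130 and 124 CPM in TSC, but at 0.546 and 0.189 CPM in EpiSC (log2 fold change -8.27 ± 0.58 against XEN; adjusted p = 2.99e-07). Between XEN and TSC no difference passed (0.15 ± 0.32; adjusted p = 0.687). Among sensors, Ifih1 was at 12.3 and 11.2 CPM in TSC, 0.324 to 1.41 CPM in XEN and 0.546 and 0.613 CPM in EpiSC (3.75 ± 0.33 in TSC against XEN; adjusted p = 3.11e-08). Between EpiSC and XEN it did not pass (-0.57 ± 0.48; adjusted p = 0.294). Dhx58, a regulator of both sensors, had its highest values in EpiSC, at 2.93 and 2.83 CPM, and Tlr3 its lowest.

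Irf1 followed the order XEN, TSC, EpiSC, with 11.6 to 12.3 CPM, 27.7 and 29.9 CPM, and 59.6 and 56.2 CPM, each step past the test. Irf9 was at 37.1 to 41.2 CPM in XEN and at 5.68 to 7.88 CPM in the other lines, between which it did not pass (0.36 ± 0.15; adjusted p = 0.0555). Irf7 was at 5.48 to 6.48 CPM in XEN and 4.22 and 5.02 CPM in TSC, but at 0.199 and 0.330 CPM in EpiSC (-4.42 ± 0.38 against XEN; adjusted p = 2.3e-08). Ifnar1 was at 129 to 131 CPM in XEN, more than in both other lines (-1.30 ± 0.09 for TSC; adjusted p = 1.93e-09), which were level with each other (0.02 ± 0.10; adjusted p = 0.913). Irf3 passed in none of the comparisons.

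Of the 18 induced genes, 11 had their highest untreated mean in XEN, 3 in TSC and 3 in EpiSC, and Oasl1 had no counts. This ranks means without a test and was not done for all genes. Among the 11, Parp9 had a mean of 14.5 CPM (SD 3.36) in XEN and 13.1 CPM in EpiSC. Ifit3, Ifit3b and Mx1 held 9, 8 and 19 counts in the XEN controls. Ifit1 was at 2.81 to 3.40 CPM in the XEN controls and at 0 counts in every TSC library, at least 40.7-fold higher in XEN, the bound resting on 3 counts over the TSC group. Rtp4, Usp18, Mx1, Ifit3 and Ifit3b were each at or below 0.151 CPM in all TSC and EpiSC controls. Parp14 fell in the order XEN, TSC, EpiSC (-2.06 ± 0.23 and -4.06 ± 0.27 against XEN), and Xaf1 was at 10.7 to 29.0 CPM in XEN against 0.596 to 1.61 CPM elsewhere. Oas1a, Bst2 and Ifi35 were instead highest in TSC: Oas1a, which makes the oligoadenylates that activate RNase L, was at 5.14 and 6.48 CPM there and 0.610 to 1.78 CPM in XEN. Bst2, which tethers budding virions, was at 76.2 and 82.3 CPM in TSC, 25.9 to 40.3 CPM in XEN and 7.30 and 7.83 CPM in EpiSC. Ifit2 departed from its family, with 5.76 and 6.46 CPM in EpiSC, 1.95 to 7.45 CPM in XEN and 0.339 and 0.201 CPM in TSC. Cxcl10 was at least 61.4-fold higher in EpiSC than in XEN and at least 120-fold higher than in TSC (3 counts over the group as floor).

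Per kilobase of exon, the most abundant member in the untreated TSC was Bst2, at 87.8 CPM per kb, followed by Trim25 at 22.1. In XEN it was also Bst2, at 38.6 CPM per kb, followed by Ifnar1 at 21.8, Trim25 at 19.9 and the kinase Eif2ak2 (PKR) at 17.8. In EpiSC the order was led by Irf1 at 14.6, Irf3 at 13.1 and Jak1 at 12.5 CPM per kb, and Bst2 was at 8.38.

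**Figure D5:**
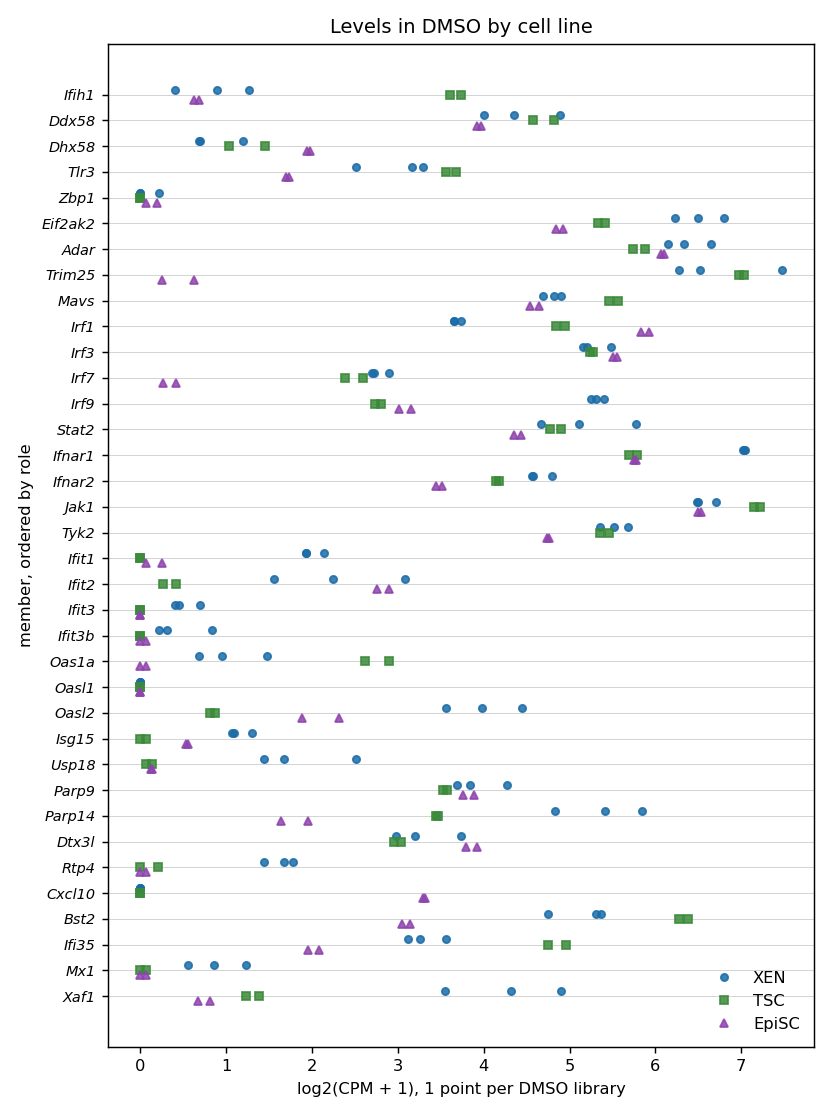
Untreated level, as log2(CPM + 1), of the 36 members (rows, by role), 1 point per DMSO library: circles are XEN, squares TSC and triangles EpiSC. Trim25 and Irf7 are near 0 in EpiSC only, Cxcl10 is at 0 outside EpiSC, and Ifit1, Rtp4, Usp18 and Parp14 are highest in XEN.

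Other genes of the pathway were taken from lists. Their counts stand beside 3.07% of all tested genes higher and 1.07% lower in XEN, 0.836% and 0.130% in TSC, and 1.28% and 0.402% in EpiSC, with a median log2 fold change of 0 over all genes in each line. Of 21 interferon ligand genes none passed the filter; they summed to 2 counts in the XEN controls, 2 in treated XEN, 0 in either arm of TSC, 0 in untreated EpiSC and 2 in treated EpiSC. These sums lie under the floor of 3 counts, so no difference in ligand messages was detectable at this depth. Of 22 other receptors, JAK-STAT genes and their inhibitors, 1 rose in XEN, Socs1, which blocks the receptor kinases (2.20 ± 0.55; 0.122 to 0.810 CPM against 0.911 to 3.32 CPM), and 1 rose in EpiSC, Ifngr2, a subunit of the interferon gamma receptor (0.86 ± 0.15).

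Of 33 tested genes of sensing and signalling outside the members, 4 rose and 1 fell in XEN, 1 rose in TSC and 2 rose in EpiSC, against those shares. In XEN these were the death-domain adaptors Fadd (0.78 ± 0.14) and Tradd (0.60 ± 0.11), the kinase Ripk1 (0.49 ± 0.12) and the ligase Traf6 (0.48 ± 0.10), with Riok3 lower (-0.41 ± 0.10). Ripk1 was the gene that rose in TSC (0.91 ± 0.16), and Tank and Traf6 rose in EpiSC (0.63 ± 0.11 and 0.50 ± 0.12). Of 56 tested further interferon-induced genes, 7 rose in XEN, 1 in TSC and 2 in EpiSC, and none fell; their medians were 0.30, 0.15 and 0.23, beside 0 over all genes, of which 3.07%, 0.836% and 1.28% rose. Parp10, an ADP-ribosyltransferase, was the 1 that rose in each line (0.60 ± 0.12, 0.80 ± 0.14 and 0.66 ± 0.14), and the antibody receptor Trim21 (1.20 ± 0.19) and the antiviral membrane protein Ifitm3 (1.46 ± 0.30) rose in XEN.

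Of 13 tested genes induced by NF-kB, none was called in XEN or TSC and 3 rose in EpiSC, where 1.28% of all genes did: the cytokine Ltb (1.90 ± 0.23), the NF-kB inhibitor Tnfaip3 (0.96 ± 0.16) and Nfkbie (0.94 ± 0.21). Ltb, like Cxcl10, had nearly all its counts in EpiSC, at 11.5 CPM in both controls and 41.1 and 44.5 CPM with STM2457, beside 0 counts in XEN and 5 and 4 counts in untreated and treated TSC. Of 14 tested genes that limit self RNA and DNA, Setdb1 rose (0.34 ± 0.09) and Morc3 fell (-0.39 ± 0.10) in XEN, none was called in TSC, and Skiv2l (-0.52 ± 0.11) and Trim28 (-0.48 ± 0.11) fell in EpiSC. Setdb1 and Trim28 act together in silencing repeats, and Skiv2l is a helicase of cytoplasmic RNA decay.

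Markers of other cells were low. The 12 macrophage and lymphocyte markers summed to 8.93 to 11.5 CPM in the XEN controls and 5.87 to 8.72 CPM with STM2457, 16.7 to 17.2 against 14.9 to 15.7 CPM in TSC, and 10.8 to 11.8 against 14.7 to 17.0 CPM in EpiSC. Of the 5 that were tested, none was called in any line. In EpiSC, where the sum was higher with STM2457 alongside Cxcl10, most of it was Cd68 (8.35 to 9.83 against 11.4 to 13.9 CPM). Of the 5 tested, 3 were positive there: Cd14 (1.08 ± 0.64), Aif1 (0.72 ± 0.43) and Cd68 (0.48 ± 0.20). The others, among them Fcer1g (-1.70 ± 1.13), were not, and the median of the 5 was 0.48. Lyz2 was at 0 in both treated libraries, Tyrobp and Cd3e were at 0 in all 4, and Ptprc was at most 0.129 CPM. The 8 fibroblast markers summed to 49.2 to 56.3 CPM in untreated and 43.1 to 45.3 CPM in treated EpiSC, and to at most 4.80 CPM elsewhere.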

How the data were processed

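The authors deposited raw, unnormalized gene counts in whole numbers. Per the submitters' processing notes, reads were handled with FastQC, Trim Galore, STAR and featureCounts on GRCm39, with no versions; per the labels' protocols the libraries came from a stranded total RNA kit. The strand setting was not given in the sources. Symbols and exon lengths were joined by Ensembl identifier from GENCODE M21 (GRCm38), and 52083 of 55416 identifiers had a symbol. All 14 libraries were fitted in 1 model of line by treatment in edgeR 4.0.16 (R 4.3.3) with TMM scaling, filterByExpr (minimum count 10, minimum total 15) and a robust quasi-likelihood F test. Benjamini-Hochberg adjustment ran over 18430 tested genes within each comparison, two-sided, with calls at an adjusted p under 0.05. The log2 fold changes carry an SE; CPM was computed from the deposited counts. The pairing check used log2 CPM with a prior count of 2. In XEN every same-number correlation was over 0.1, so the numbers pair the libraries there; the labels give no reason for the pairing. Alternatives were RLE factors, library totals, scaling to ribosomal protein genes, no filter, a replicate block, DESeq2 1.42.0, the libraries of the compared lines alone, and leaving out each library. Every member is named; called members get their value in each library. Members and lists were chosen with earlier results of these data known.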

Additional observations from a re-analysis of the deposited data

How the results depend on the processing

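No called STM2457 effect of a member changed sign in these alternatives. Scaled to ribosomal protein genes, the 8 higher and 14 lower members of untreated EpiSC against TSC became 10 higher and 9 lower. Over all tested genes, 5047 higher and 4971 lower became 6221 and 3156. With this scaling the median member effect in TSC minus XEN, with no member called, moved from -0.16 to 0.01. The median of all genes in that contrast moved as well, from -0.01 to 0.18. Without 1 TSC or EpiSC library an arm holds 1, assumed to vary like the other groups. In XEN, 8 members were called, beside 4.15% of all tested genes in either direction. The count was 17 with the replicate block (13.3% of genes), 15 in XEN libraries alone with the block (11.4%) and 0 in them without it (0.191%). It was 2 when scaled to ribosomal protein genes (0.765%), and 3 to 13 when 1 library was left out (2.26% to 5.74%). In TSC the count of 0 became 2 with DESeq2, 7 with the replicate block and 9 in TSC libraries alone, and stayed 0 without any 1 library. In EpiSC the count of 1 became 5 with DESeq2, 2 without the filter, 12 with the replicate block and 13 in EpiSC libraries alone, and 0 without any 1 library. The share of all tested genes called in either direction in TSC was 0.966%, and 5.27% with DESeq2, 11% with the block and 30.2% in TSC libraries alone. In EpiSC it was 1.68%, and 6.26% with DESeq2, 1.84% without the filter, 13.2% with the block and 29.2% in EpiSC libraries alone. Same-number correlations were -0.00269 in TSC and -0.0120 in EpiSC, so by this check the numbers do not pair libraries there. For the mean effect, 13.4% of all tested genes were called, and 25.6% with the replicate block. Without 1 XEN library this share was 13% to 17.8%, the highest without XEN DMSO replicate 2, where the member count was highest too. Fits without 1 TSC or EpiSC library leave 1 in an arm, so a lower member count there does not show a loss particular to members. The mean effect had 10 calls, 17 with the replicate block and 6 to 16 without 1 library; the lowest count came without EpiSC DMSO replicate 2 or TSC STM2457 replicate 2, the highest without XEN DMSO replicate 2. Between lines, the effect in EpiSC minus XEN gave 1 call without the filter (0.207% of all genes) and 1 with the replicate block (0.971%). EpiSC minus TSC gave 1 in those libraries alone (4.23%), and each time the member was Stat2. Calls between untreated lines were 24, 26 and 22 for TSC against XEN, EpiSC against XEN and EpiSC against TSC. The shares of all tested genes were 72.5%, 71.7% and 54.4%. Without 1 XEN control, TSC against XEN gave 25 to 26 calls, beside 68.9% to 71.9% of genes. EpiSC against XEN then gave 25 to 27, beside 68.1% to 71.1%. Of the other values of named members, 458 kept their side of the threshold, 62 lost a call and 29 gained one. This tally leaves out the fits on the libraries of 1 line alone, whose counts of called members are given above. Depth limits XEN most, where 3 counts are 0.333 to 0.486 CPM.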
